A study of Mus musculus with 6 samples.

Results

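The respiratory chain and ATP synthase genes of mouse skeletal muscle were followed on 6 spotted arrays of total RNA. The members were the genes of probes for which the platform annotation gives exactly 1 symbol, where that symbol starts with Nduf, Uqcr, Atp5 or Cox and a digit, or is Cyc1 or Cycs. The rule used no measured value. It found 79 genes on 273 probes, out of 3939 named genes in all, and 70 of the 79 had a value on all 6 arrays, among 3180 such genes. Of the 70, 32 belonged to complex I, 7 to complex III, 15 to complex IV and 15 to complex V, and 1 was the cytochrome c gene Cycs.

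Each group had 1 array. The sham mice had surgery and carried an implanted pacer that was inactive, and their muscle was taken at the time that matches the end of stimulation. The paced mice were stimulated through the implanted pacer for 3 h, and their muscle was taken 0 h, 1 h, 3 h, 8 h or 24 h after the end. Each array also held a reference RNA from control muscle, called Pre, in its second channel, and the values are log2 ratios to Pre. The dyes are not stated, so the direction, sample over Pre, is likely but not settled. With the ratio turned, every log2 ratio and difference below changes sign, and what is given as higher or highest becomes lower or lowest. Strain, age, the muscle sampled and the number of mice behind each RNA are not given in the sources used here. A group is a single array, so no difference below has a replicate check or a test. Where 5 values after pacing or 5 differences from sham follow each other, they are in the order 0 h, 1 h, 3 h, 8 h and 24 h. Beyond 0 h, differences from sham also contain elapsed time, and all 5 comparisons with sham share the 1 sham array. Fewer cells of a type and less RNA per cell cannot be told apart in such bulk RNA. Members are different genes and are not replicates of a condition.

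The respiratory chain passes electrons from NADH and succinate to oxygen and uses their energy to pump protons out of the mitochondrial matrix, and ATP synthase lets the protons back in to make ATP. Complex I oxidises NADH, complex III passes electrons from ubiquinol to cytochrome c, and complex IV hands them to oxygen. Most subunits are encoded in the nucleus, and their transcripts are abundant in oxidative muscle fibres, which rely on this pathway during sustained contraction. Several complex IV subunits come in a form made in heart and skeletal muscle and a form made in most tissues.

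The members stood above Pre in sham muscle and close to Pre at every time after pacing. In sham the median log2 ratio to Pre was 0.27, with 55 of 70 members above Pre (78.6%), where 48.5% of all genes were above and the median of all genes was -0.01. After pacing, the list medians against Pre were -0.05, 0.02, 0.13, 0.05 and 0.01, with 25, 42, 51, 50 and 36 of 70 members above Pre, where 50.2%, 49.6%, 50.9%, 51.3% and 51.7% of all genes were. The 3 h array was thus the highest of the paced arrays by its median and the 0 h array the lowest, and the reverse with the ratio turned.

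The differences from sham had list medians of -0.33, -0.26, -0.09, -0.17 and -0.27, where the medians of all genes were 0.04, 0.03, 0.02, 0.06 and 0.08. Members below sham numbered 57, 58, 47, 56 and 54, while the shares of all genes below sham were 46.3%, 47.2%, 46.9%, 44.4% and 42.5%. At all 5 times 36 of the 70 members (51.4%) were below sham, as were 22.5% of all genes. Above sham at all 5 times were 5 members, against 29.6% of all genes. On all 6 arrays 11 members were above Pre, against 16.5%, and 2 below, against 15.1%. With the arrays scaled to a common spread, 26 members were below sham at all 5 times, against 17.6% of all genes, and the list medians against sham were -0.23, -0.14, -0.06, -0.08 and -0.18.

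**Figure D1:**
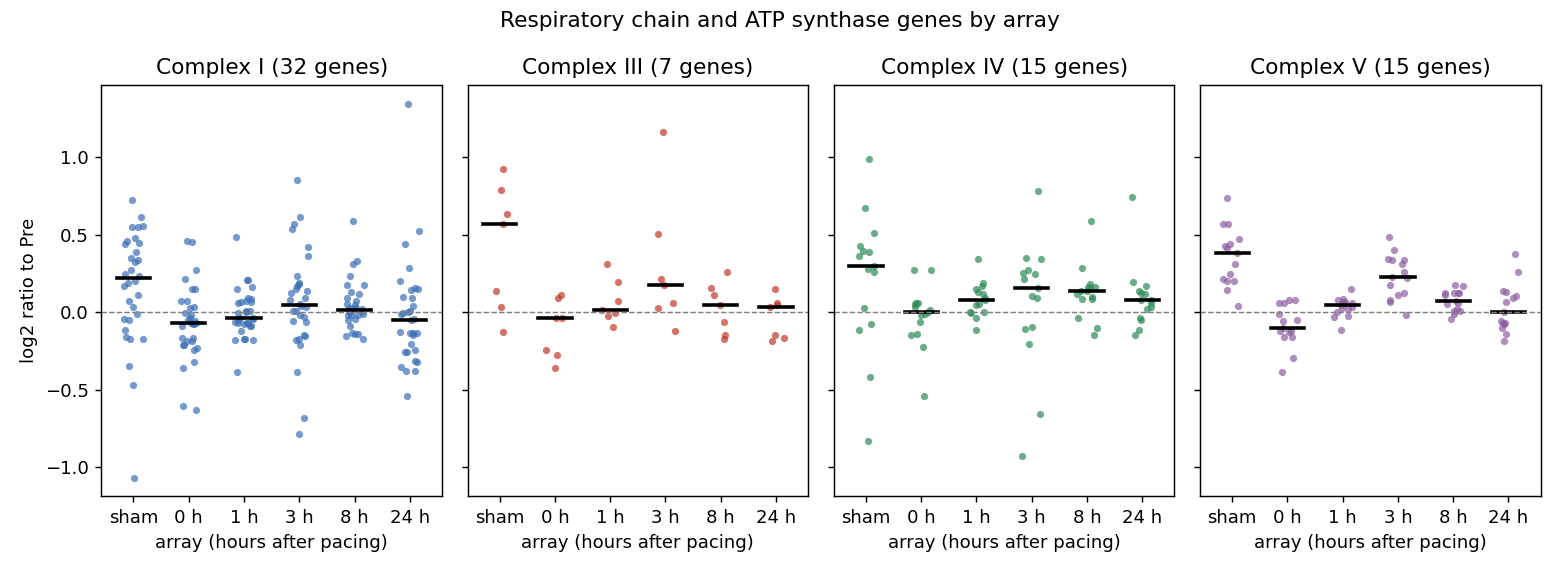
Each point is the log2 ratio to Pre of 1 gene (vertical axis) on 1 array (horizontal axis: sham and hours after pacing), for the members measured on all 6 arrays, with a black bar at the median of each complex. The sham points lie mostly above the dashed line at 0, and the paced medians lie between -0.10 and 0.22.

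Most of these differences were small. A gene was called at 1.5-fold, a log2 difference of 0.585 or more in size. In sham 8 members (11.4%) were called higher than Pre, against 8.33% of all genes, and 2 (2.86%) lower, against 10.2%. At 0 h 14 members (20.0%) were called lower than sham, against 10.8% of all genes, and 3 (4.29%) higher, against 12.8%. At 1 h there were 5 lower against 4.5% of all genes and 2 higher against 6.6%. The 3 h array had 3 lower against 4.91% and 0 higher against 5.94%. Called at 8 h were 6 lower and 3 higher, against 7.74% and 9.84% of all genes, and at 24 h 10 lower and 4 higher, against 9.78% and 12.3%. As shares of the 70 members the lower calls from 1 h to 24 h were 7.14%, 4.29%, 8.57% and 14.3%. At 3 h and 8 h they were near the share among all genes. At 1 h and 24 h they were above it by few genes. When each array was first scaled to a common spread, the lower calls against sham were 8, 2, 1, 2 and 3 and the higher calls 2, 1, 0, 2 and 3. In sham against Pre that left 1 lower and 2 higher. The shares of all genes called after scaling were not computed, so these counts cannot be set against the unscaled shares. At 2-fold, 1 member was lower than Pre in sham (1.51% of all genes) and 0 higher (1.82%). Against sham 4 were 2-fold lower and 1 higher at 0 h (2.86% and 3.11% of all genes), and 1 was lower at 3 h (0.818%) with 0 higher (1.32%). At 1 h, 8 h and 24 h 0 members were 2-fold lower (0.535%, 1.57% and 2.8%) or higher (0.786%, 1.67% and 3.02%).

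Against Pre, few members of the paced arrays were called. At 0 h 2 were lower and 0 higher, against 4.03% and 5.66% of all genes, and at 1 h 0 were lower and 0 higher, against 0.597% and 2.2%. The 3 h array had 4 lower and 4 higher, against 9.53% and 7.8%. At 8 h there were 0 lower and 2 higher, against 2.45% and 4.37%, and at 24 h 0 and 2, against 6.73% and 10.8%. Cox7b, of complex IV, and Ndufaf8, a complex I assembly factor, were the higher members at 8 h and 24 h.

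The position of the members went with the number of probes that a gene has on the array, except at 3 h. Among the 30 members with 4 or more probes, 29, 29, 19, 27 and 28 were below sham. Among the 14 members with 1 probe, those numbers were 7, 9, 10, 8 and 8. Genes of every kind with 4 or more probes, 241 in all including these 30, were also mostly below sham, with shares of 70.5%, 69.7%, 58.1%, 65.1% and 59.8%. Their median against Pre in sham was 0.12, less than the 0.30 of the 30 members. The part of this in the list's position was not tested.

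**Figure D2:**
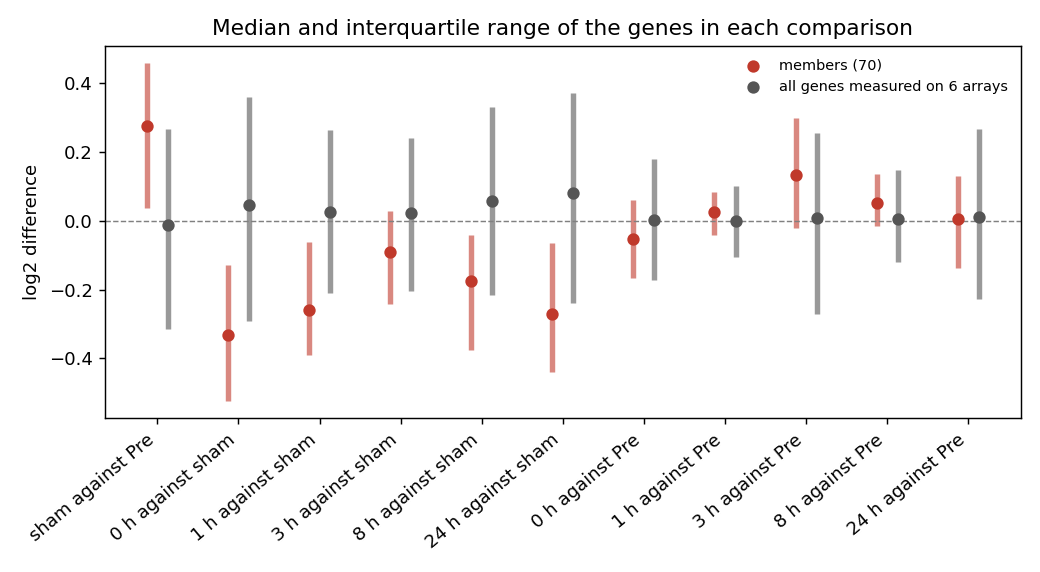
Points are medians and bars the interquartile range of the genes, in log2 units (vertical axis), for the 70 members (red) and for all 3180 genes measured on all 6 arrays (grey), in each of 11 comparisons (horizontal axis). The member medians run from -0.33 at 0 h to -0.09 at 3 h against sham, below the grey medians.

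Transcription of many of these genes depends on nuclear respiratory factor 1 (NRF1) and GABP, whose known sites are short motifs near the start. The 250 bases before the start were searched on both strands for the NRF1 motif, which is GCGCA and GCGC with any 1 base between them, and for the GABP core CCGGAAG, in RefSeq promoters of GRCm38.p6, which were found for 67 of the 79 members. The NRF1 motif was in 13 of 72 member promoters (18.1%), in 8.07% of the promoters of all genes on the array and in 3.74% of all promoters. The GABP core was in 11 member promoters (15.3%), in 504 of the 4189 promoters of genes on the array and in 6.91% of all promoters. The motifs do not overlap in the stretches below. Those stretches show a member 2-fold below sham at 0 h (Ndufa8), a c-subunit gene (Atp5g2), a complex IV gene with 6 probes (Cox6b1) and a muscle form of a complex IV subunit (Cox7a1). Each is the 130 bases before the start, with motif matches in capitals.
Ndufa8: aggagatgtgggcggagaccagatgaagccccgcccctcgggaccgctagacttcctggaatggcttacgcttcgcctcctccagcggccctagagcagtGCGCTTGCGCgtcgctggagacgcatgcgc
Atp5g2: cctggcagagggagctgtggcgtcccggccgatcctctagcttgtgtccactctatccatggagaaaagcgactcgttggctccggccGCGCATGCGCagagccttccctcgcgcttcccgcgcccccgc
Cox6b1: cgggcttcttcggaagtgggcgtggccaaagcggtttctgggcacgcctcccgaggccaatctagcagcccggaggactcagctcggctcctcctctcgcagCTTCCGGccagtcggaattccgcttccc
Cox7a1: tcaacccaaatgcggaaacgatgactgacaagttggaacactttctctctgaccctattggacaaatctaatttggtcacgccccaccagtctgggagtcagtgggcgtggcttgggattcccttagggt
They lie at chr2:36049339-36049468 on the minus strand, chr15:102671048-102671177 on the minus strand, chr7:30626115-30626244 on the minus strand and chr7:30184041-30184170 on the plus strand. The Ndufa8 and Atp5g2 stretches each hold 1 NRF1 match, the Cox6b1 stretch holds 1 GABP match, and the Cox7a1 stretch holds neither. A match describes the letters of the window and not a bound site. The genes shown were picked by hand, and most of their stretches hold a match, unlike most member promoters. Among the members 2-fold below sham at 0 h, a match was found for Ndufa8 alone, and among the c-subunit genes for Atp5g2 alone. A link between matches and the array values was not tested.

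Complex I is the largest of the complexes, with an arm in the matrix that oxidises NADH and an arm in the membrane that pumps protons. Its 32 members had a median of 0.22 in sham against Pre and of -0.29, -0.22, -0.07, -0.15 and -0.20 against sham, or -0.17, -0.17, -0.06, -0.08 and -0.19 with the arrays scaled to a common spread. For the 13 matrix arm genes the 0 h median was -0.25, with 10 below sham, and the 14 membrane arm genes -0.31 with 13 below. At 24 h these medians were -0.20 and -0.31. The difference between the arms was not tested.

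In the matrix arm, Ndufv1 encodes the subunit that takes electrons from NADH. Its log2 ratios to Pre were 0.55 in sham and -0.24, 0.21, 0.57, 0.09 and 0.04 after pacing. The means of sham and 3 h were level, but its 2 probes went opposite ways between them, from 0.37 to 0.68 and from 0.73 to 0.46 (probe SD 0.40). The difference at 0 h was -0.80 (2 probes, probe SD 0.45; a probe SD is the spread of a gene's probes on 1 pair of arrays, not of animals). Ndufs4, an accessory subunit needed for a stable matrix arm, stood at 0.62 in sham and -0.04, 0.21, 0.42, 0.05 and -0.20 after pacing. It was lower than sham on every paced array, by the most at 24 h, with -0.82 from gene means and -0.97 from the single probe that both arrays measured. Ndufs7, an iron-sulphur subunit chosen for its 6 probes after its values were seen, stood at 0.45 in sham and -0.36, 0.06, 0.09, 0.01 and -0.26 after pacing. All 6 of its probes were below sham at 0 h, where the difference was -0.81 (probe SD 0.35).

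Not all of the matrix arm shared this pattern. Ndufs1, the largest iron-sulphur subunit, stood between 0.04 and 0.28 on all 6 arrays, with sham at 0.07 (1 probe). Ndufs3, another core subunit, stood between -0.21 and -0.13 on all 6 arrays, so that sham and paced values overlapped. Of its 5 probes, 1 lay between -1.60 and -0.78 on all arrays and the others between -0.07 and 0.47, so its place below Pre rests on that probe. Ndufa7, an accessory subunit, went the other way, at -0.47 in sham and -0.08, 0.01, -0.15, 0.31 and 0.20 after pacing. It was 1 of the 5 members above sham at all 5 times and rested on 1 probe. Ndufa12, a small accessory subunit, was at 0.24 in sham and -0.21, 0.08, -0.79, 0.13 and -0.01 after pacing. The 3 h value of its 1 probe was 2.03-fold below sham and apart from its other values.

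In the membrane arm, Ndufa8 was the complex I gene furthest below sham by its median over the 5 times (-0.59, 1 probe). Its ratios to Pre were 0.46 in sham and -0.61, -0.18, 0.17, -0.13 and -0.01 after pacing, so the 0 h array was the lowest and 2.10-fold below sham. Of the 7 values of members that were 2-fold from sham, it was the 1 that stayed past 2-fold after scaling, at -1.03. Ndufab1, the mitochondrial acyl carrier protein found in both arms, stood at 0.34 in sham and between -0.06 and 0.12 after pacing (4 probes).

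Assembly factors help build complex I and are not part of it. Ndufaf7, a methyltransferase that acts on a core subunit, stood at -1.07 in sham and 0.15, -0.12, -0.68, -0.14 and -0.15 after pacing. Its 1 probe was low in sham and at 3 h, and the 0 h value was 2.33-fold above sham. Ndufaf8 was at 0.72 in sham and 0.46, 0.49, 0.86, 0.59 and 1.35 after pacing, above Pre on all arrays and highest at 24 h (1 probe). Its median difference from sham was -0.13, and 0.34 with the arrays scaled to a common spread. Across complexes I and IV, 6 assembly factors were measured on all arrays, and their median in sham was -0.14 with 4 below Pre, while the other 64 members had 0.30. Each of the 6 had 1 or 2 probes, and the part of probe number in this contrast was not tested.

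Complex III had the largest median difference from Pre in sham, 0.57 over 7 genes, with 6 of the 7 above Pre. Its medians against sham were -0.61, -0.48, 0.02, -0.67 and -0.73, and with the arrays scaled to a common spread -0.44, -0.03, 0.02, -0.27 and -0.50. Much of this rested on genes with few probes. Over its members with several probes the median was 0.14 in sham, and those at 0 h, 1 h, 8 h and 24 h against sham were -0.28, -0.07, -0.10 and -0.22. At 3 h the sign turned, to -0.28, when only probes measured on both arrays were used.

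Cyc1 encodes cytochrome c1, the haem protein that hands electrons to cytochrome c. It stood at 0.63 in sham and -0.28, -0.09, -0.12, -0.17 and -0.14 after pacing. The sham value of its 1 probe was above all paced values, with differences from -0.91 at 0 h to -0.73 at 1 h. Cyc1 and Cox8a were the members at least 1.5-fold below sham at all 5 times, but neither was with the arrays scaled to a common spread. The share of all genes with this pattern was not computed, and all 5 differences share the 1 sham array. The scaled differences were -0.76, -0.62, -0.53, -0.69 and -0.56 for Cyc1, called at 3 of 5 times, and -0.85, -0.39, -0.49, -0.56 and -0.54 for Cox8a, called at 1. With zeros kept as measured, the median difference of Cox8a was -0.37 in place of -0.84. Uqcrb, a small subunit of the ubiquinone-binding region, stood at 0.79 in sham and -0.36, 0.31, 0.51, 0.05 and 0.06 after pacing. Sham was the highest array and 0 h the lowest, 2.22-fold below sham (1 probe; -0.96 in log2 units after scaling).

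Uqcrq, another small subunit, stood at 0.92 in sham and 0.09, 0.20, 1.16, 0.26 and 0.05 after pacing. Its sham and 3 h means were high, but its 2 probes gave 1.60 and 0.25 in sham, and 1 of them had no measured value at 3 h. With zeros kept as measured, the 3 h value was 0.58. The Rieske iron-sulphur protein gene Uqcrfs1 stood at 0.57 in sham and -0.04, 0.01, 0.17, -0.15 and -0.17 after pacing. Sham was again the highest, yet its 7 probes ranged from -0.33 to 1.27 in sham, and 5 of the 7 were below sham at 0 h (mean -0.61, probe SD 0.61).

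Uqcrc1, a core protein with 7 probes, showed little of this, at 0.03 in sham and -0.25, -0.01, 0.06, -0.06 and -0.19 after pacing. The hinge protein gene Uqcrh (5 probes) lay between -0.04 and 0.21 on all 6 arrays. Uqcr10 was above sham at all times, by 0.10 to 0.28, but its 2 probes went in opposite directions at each time. Cycs, cytochrome c itself, was above Pre on all 6 arrays, at 0.15 in sham and 0.25, 0.03, 0.31, 0.02 and 0.18 after pacing. Sham lay inside the range of the paced values, so this carrier did not stand apart from them.

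Complex IV, cytochrome c oxidase, had 15 members with a median of 0.30 in sham and of -0.33, -0.27, -0.12, -0.14 and -0.24 against sham. At 1 h the sign turned with the arrays scaled to a common spread, to 0.02, and the 0 h, 8 h and 24 h medians became -0.20, -0.03 and -0.16. The medians against Pre after pacing ran from 0.00 at 0 h to 0.15 at 3 h. This 3 h peak was lost with the arrays scaled to a common spread. The 3 h median against Pre was then 0.12, lower than the 0.20 of the 8 h array and the 0.16 of the 1 h array.

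Genes with many probes show the size of the difference with a check within the array, and they were chosen for this after their values were seen, apart from Cox4i1 and Cox5a. Cox4i1, the largest nuclear-encoded subunit, stood at 0.51 in sham and -0.01, 0.19, 0.25, 0.19 and 0.08 after pacing. All 7 of its probes were above Pre in sham (probe SD 0.12), and all 7 were below sham at 0 h, 1 h, 8 h and 24 h, with a mean of -0.53 at 0 h (probe SD 0.25). Cox5a, which sits on the matrix side, stood at 0.26 in sham and -0.02, -0.01, 0.27, 0.08 and -0.05 after pacing. The sham and 3 h arrays were level, and 11 of 13 probes were below sham at 0 h against 6 of 13 at 3 h.

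Cox6c, the gene with the most probes (14), stood at 0.43 in sham and 0.05, 0.17, 0.34, 0.28 and 0.19 after pacing. On 10 probes measured on both arrays, 7 were below sham at 0 h (probe SD 0.62), so the probes disagreed more than for Cox4i1. Cox7b was above Pre on all 6 arrays, as were Cox6b1, Cox6c and Cox7c, at 0.67 in sham and 0.27, 0.34, 0.78, 0.59 and 0.74 after pacing. Its 3 h and 24 h means were above sham, but its 8 probes disagreed. At 24 h 2 probes stood at 1.90 and 1.78 and the other 6 between 0.19 and 0.78, and at 3 h a different probe went from 0.40 in sham to 1.49. The probe at 1.78 had no measured value at 0 h or 1 h, so the means there are over fewer probes.

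**Figure D3:**
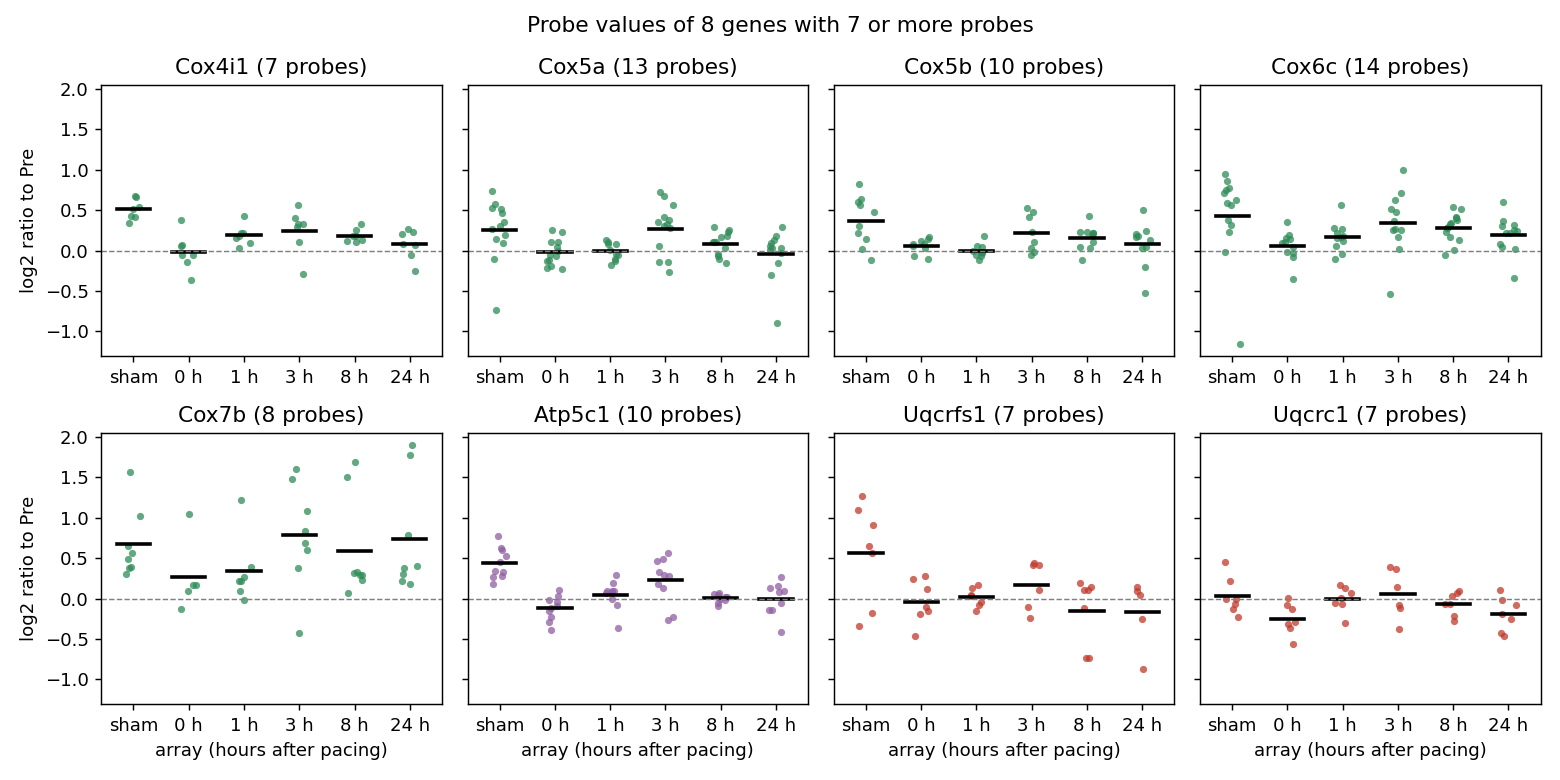
Each point is the log2 ratio to Pre (vertical axis) of 1 probe on 1 array (horizontal axis: sham and hours after pacing) for 8 genes with 7 or more probes, and black bars are probe means. The other members with 7 or more probes, Atp5j, Ndufb9, Ndufb11 and Ndufv2, are not shown. For Cox4i1 and Atp5c1 the sham probes sit together above most paced probes, while the probes of Uqcrfs1 and Cox7b are widely spread.

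Cox6a2, the heart and muscle form, stood at 0.28 in sham and -0.06, -0.04, -0.11, 0.10 and -0.15 after pacing. Sham was its highest array, with both measured probes below sham at each time. Cox6a1, the general form, had no measured value in sham and lay between -0.19 and 0.23 on the paced arrays. Cox7a1, also a muscle form, had 2 probes of opposite sign in sham, at 0.34 and -0.29, and its gene mean stayed within 0.27 of Pre on all arrays. Cox7a2, its general counterpart, was below Pre on all 6 arrays, at -0.42 in sham and between -0.21 and -0.10 after pacing (1 probe), and so was above sham at all 5 times.

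Cox8a, the general form of a small membrane subunit, was at 0.99 in sham and -0.14, 0.15, 0.25, 0.08 and 0.17 after pacing. Its sham value was the highest of all 70 members, or the lowest with the ratio turned, and rested on 1 of its 2 probes. The 0 h value was 2.19-fold below sham. With zeros kept as measured the log2 difference at 0 h was -0.63, and the 2-fold call was lost. Cox8b, the muscle form, had 1 probe and 4 measured arrays, at -0.12 in sham, -0.09 at 1 h, 0.36 at 3 h and 0.08 at 8 h.

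Cox17, a copper chaperone that supplies the complex, stood at -0.83 in sham and -0.22, 0.05, -0.93, 0.14 and 0.14 after pacing (1 probe). Like Ndufaf7 it was low in sham and at 3 h and near Pre elsewhere. The gene mean of Cox7a2l, which helps join complexes III and IV in supercomplexes, stayed within 0.12 of Pre on all arrays. Its 3 probes disagreed, ranging from -0.40 to 0.32 in sham and from -0.49 to 0.80 at 3 h. Ndufa4, named for complex I and placed here in complex IV, stood at 0.40 in sham and between -0.04 and 0.35 after pacing.

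Complex V is the ATP synthase. All 15 of its members were above Pre in sham, with a median of 0.38, where 48.5% of all genes were. Against sham, 14, 15, 12, 15 and 15 of the 15 were below, with medians of -0.37, -0.28, -0.10, -0.26 and -0.30. With the arrays scaled to a common spread these medians were -0.29, -0.16, -0.06, -0.10 and -0.21. At 3 h 14 of the 15 were above Pre, with a median of 0.22.

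In the catalytic head, Atp5b encodes the subunit that holds the catalytic sites. It stood at 0.43 in sham and 0.08, 0.08, 0.26, 0.05 and 0.13 after pacing. Sham was the highest array and 3 h the highest paced one, and all 6 probes were below sham at 8 h and 24 h, with means of -0.38 (probe SD 0.20) and -0.30 (probe SD 0.16). Atp5c1, the rotating central shaft, stood at 0.44 in sham and -0.12, 0.05, 0.22, 0.01 and 0.00 after pacing. All 10 of its probes were above Pre in sham and below sham at 0 h and 8 h, with -0.56 at 0 h (probe SD 0.32). The gene mean of Atp5a1, the partner of Atp5b in the head, did not share this. It lay between -0.08 and 0.11 on all 6 arrays, with sham at 0.04 (5 probes). Those probes disagreed in sham, from -0.35 to 0.61 (probe SD 0.40). At 24 h 3 of the 4 probes measured on both arrays were below sham, with a mean of -0.21.

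The membrane ring is made of copies of subunit c, whose mature form is the same from each of the genes Atp5g1, Atp5g2 and Atp5g3. Atp5g1 stood at 0.57 in sham and -0.16, 0.02, 0.08, 0.02 and -0.19 after pacing (1 probe). Atp5g2 was at 0.47 in sham and -0.12, -0.03, 0.33, 0.12 and 0.37 after pacing, with all 4 probes below sham at 0 h. Atp5g3 was at 0.25 in sham and -0.39, 0.03, 0.31, -0.01 and -0.06 after pacing, and its 4 probes measured on both arrays were below sham at 0 h. All 3 were called lower than sham at 0 h, at -0.73, -0.59 and -0.64, where 10.8% of all genes were. Scaling the arrays to a common spread gave -0.58, -0.47 and -0.62, so that the call remained for Atp5g3 and not for the other two. They differed at 24 h, where Atp5g2 stood near its sham value and Atp5g1 did not. Spotted DNA can bind related transcripts, so values of close family members may mix.

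In the stalk and membrane part, all 8 members were below sham at 0 h, 1 h, 8 h and 24 h, and 7 at 3 h. Atp5md, a small membrane subunit, stood at 0.74 in sham and -0.30, 0.06, 0.34, 0.17 and 0.26 after pacing. It was 2.05-fold below sham at 0 h on 2 probes that differed in size (probe SD 0.65), and -0.86 in log2 units after scaling. Atp5mpl, a further small membrane subunit, stood at 0.57 in sham and -0.05, 0.00, 0.49, 0.06 and 0.10 after pacing (3 probes). Atp5j, of the peripheral stalk, stood at 0.14 in sham and between -0.16 and 0.09 after pacing (7 probes). Its differences from sham were -0.31, -0.26, -0.08, -0.13 and -0.05, near the list medians at 0 h and 1 h. Its probes ranged from -0.72 to 1.00 in sham, and the probe SD at 0 h was 0.66.

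The paced arrays can be set against each other without the sham array. Between 0 h and 1 h the list median was 0.07 with 54 of 70 members higher, against 48.7% of all genes, and from 1 h to 3 h it was 0.15 with 52 higher, against 52.3%. From 3 h to 8 h it was -0.06 with 46 lower, against 50%, and from 8 h to 24 h -0.05 with 47 lower, against 48%. These counts are from unscaled arrays and were not computed on arrays scaled to a common spread. After such scaling the complex IV median against Pre was higher at 8 h than at 3 h, so its fall between them was not kept. The 3 h array was the highest of the paced arrays for 39 of 70 members (55.7%), as it was for 26.8% of all genes, and these would have it as the lowest with the ratio turned. With the arrays scaled to a common spread, some of the 39 had another array as the highest. In complex IV Cox5a and Ndufa4 kept 3 h, while Cox4i1, Cox5b, Cox6c, Cox7b and Cox8a did not. In complex V Atp5a1, Atp5j2 and Atp5pb did not keep it, and the other such genes did. For 31 members (44.3%), 0 h was the lowest of the 6 arrays, as for 18.2% of all genes. The robust SD of all probes was 0.495 in sham and 0.293, 0.176, 0.445, 0.242 and 0.400 after pacing, so the sham and 3 h arrays were also those with the widest ratios. The part of this in the order of the arrays was not tested.

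**Figure D4:**
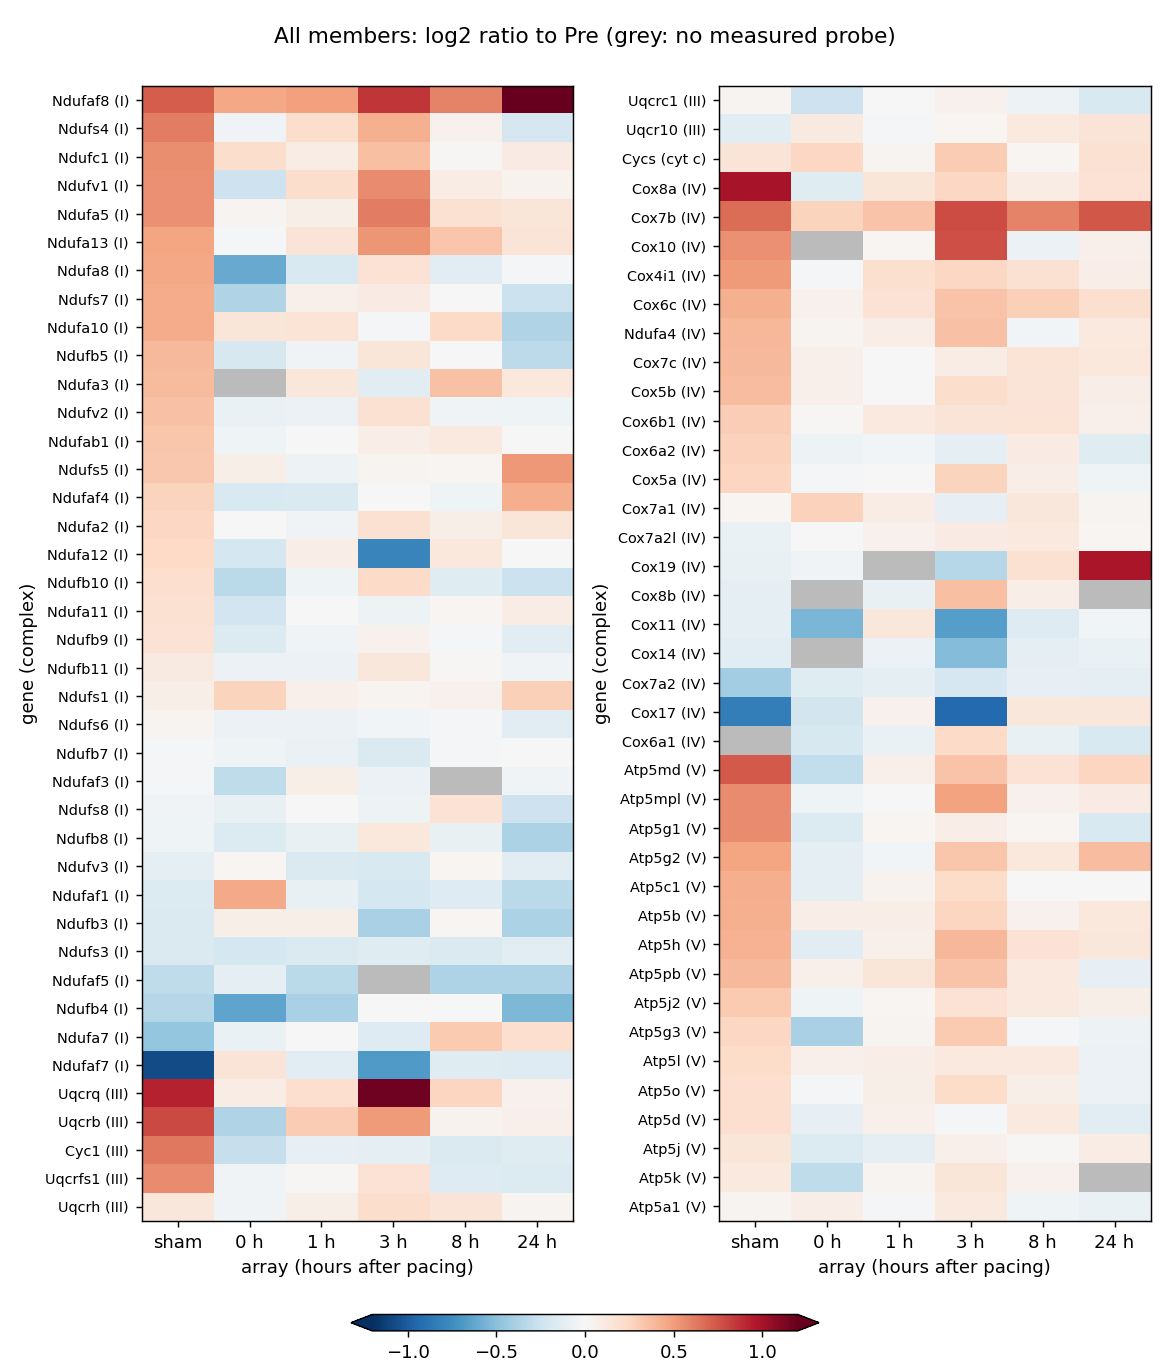
Colour gives the log2 ratio to Pre of all 79 members (rows, with the complex in brackets, ordered within a complex by the sham value) on the 6 arrays (columns), and grey marks 9 members with no measured probe on some array. The sham column is red for most members and the 3 h column is the reddest of the paced columns, with Cox17 and Ndufaf7 blue in both.

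Of the 9 members without a value on all arrays, each had 1 probe. Cox19, a copper-handling assembly factor, stood at -0.09 in sham and 0.98 at 24 h, 2.10-fold above sham, and at 0.90 in log2 units after scaling. Cox10, which makes the haem of complex IV, stood at 0.55 in sham and, from 1 h on, at 0.03, 0.78, -0.07 and 0.06, high on the same 2 arrays as Uqcrq. The remaining 5 beside Cox6a1 and Cox8b, namely Atp5k, Cox14, Ndufa3, Ndufaf3 and Ndufaf5, lay between -0.52 and 0.38 on the arrays where they were measured.

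Other genes of the pathway were taken from lists. Complex II, which feeds electrons from succinate, had all 4 genes above Pre in sham (median 0.25) and medians of -0.30, -0.20, -0.33, -0.20 and -0.22 against sham. Sdha, its flavoprotein, stood at 0.23 in sham and between 0.03 and 0.29 after pacing (9 probes). Sdhc, a membrane anchor, was the 1 gene of the 4 called, at -0.60 at 0 h (1 probe), where 10.8% of all genes were called lower. After scaling to a common spread it was at -0.44 and not called. The 7 quinone and carrier proteins had a median of 0.14 in sham and of -0.31, -0.08, -0.06, -0.12 and -0.29 against sham, with 4 of 7 below sham at 0 h. The 12 assembly factors outside the rule had a median of -0.04 in sham and 0.02 at 0 h, with 5 of 12 below sham. The 7 measured regulators of mitochondrial genes had a median of -0.12 in sham and -0.14 at 0 h. At 0 h 2 of the 7 were called lower than sham and 0 higher, against 10.8% and 12.8% of all genes. Esrrg, an oestrogen-related receptor that drives oxidative genes, was 1 of these and was chosen after its values were seen, at 0.67 in sham and -0.86, 0.08, -0.22, -0.09 and 0.25 after pacing (1 probe).

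Marker lists were read for the mixture of cells. Ratios to Pre show shifts between RNAs and not whether a gene is present. The 10 skeletal muscle markers had a median of 0.03 in sham and -0.10 against sham at 0 h, and the 9 slow oxidative fibre markers 0.03 in sham and 0.17 at 0 h, with 4 of 9 below sham. At 24 h the slow fibre median was -0.31 with sham as the base and -0.26 with Pre as the base, and 8 of 9 were under Pre. The members' median at 24 h was 0.01 with Pre as the base. With sham as the base it was close to that of the slow fibre markers. In sham the medians of the other lists were 0.33 for 3 adipocyte genes, 0.00 for 4 endothelial genes, 0.14 for 4 fibroblast genes and -0.03 for 4 smooth muscle genes. The smooth muscle genes were far apart in sham, with Actg2 at 2.52, Acta2 at 0.54, Cnn1 at -0.59 and Myl9 at -1.18. At 0 h against sham these medians were -0.10, 0.18, -0.13 and -0.55. Of the blood cell list, Hba-a1 stood at 0.13 in sham and -0.43 at 0 h against sham, and Hba-a2, which has no 3 h value, at 0.30 and 0.05. Of the macrophage and leukocyte list, Lyz2 stood at -0.16 in sham and 0.29 at 0 h against sham, and Ptprc, which has no 3 h value, at 0.93 and -0.91. Within each of these lists the signs differed, in sham or at 0 h. The Schwann cell list had no gene measured on all arrays. The part of these shifts in the members' position was not tested.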

How the data were processed

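Total RNA of 6 mouse muscle samples was measured on arrays with 2 channels, 1 array per group. The authors deposited log10 ratios alone, for 13872 probes on each array; scanner, background correction and normalisation are not given in the sources used here. The log base was read from rounding residues of zero in 97 cells. Signal over background is unknown, and having 1 array a group limits precision.

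Ratios were converted to log2. Exact zeros (201 in sham, 665 to 1762 after pacing) and values repeated within 1 of 48 print runs were set to missing, and each array was centred on its median. This left 90.1% to 97.8% of the 273 member probes. Probes with 1 symbol in the platform annotation were averaged per gene; 284 probes had several symbols, none of a member, and 6979 had none. Entrez IDs placed all 79 members in RefSeq's GRCm38.p6 table. The sham column alone has empty cells, 485. The handling of zeros was chosen after values were seen.

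Members and gene lists were chosen with earlier results of these data known. Genes described singly were those 2-fold from sham or Pre, the 3 lowest and 2 highest of each complex by median difference from sham, isoform pairs and core subunits. Ndufs3, Ndufs7, Ndufab1, Ndufa4, Cox6b1, Cox6c, Cox7b, Cox7c, Cox7a2l, Cox10 and Atp5c1 fall outside this rule and were chosen after their values were seen. A cutoff of 1.5-fold counted as called. The calculations were tested on simulated data (Python 3.11.15, pandas 2.3.3). Alternatives were keeping zeros, probes measured on both arrays, probe medians, scaling, centring and subsets of members.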

Additional observations from a re-analysis of the deposited data

Results flagged for a closer look

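The list median against Pre lay on opposite sides of 0 at different times after pacing, with -0.0543 at 0 h and 0.132 at 3 h. The difference between these times was not tested, since each time had 1 array.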

How the results depend on the processing

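No paired analysis was possible because each group had 1 array and the replicate numbers only name samples; for the same reason no replicate could be left out. The list medians kept their sign in all alternatives, apart from the 24 h median against Pre, which lies at 0. Of 88 alternative values of list medians, 86 moved by at most 0.1; after scaling the arrays to a common spread, the medians against sham were -0.23 at 0 h and -0.14 at 1 h. The number of members 1.5-fold from the reference, 10 in sham against Pre and 17, 7, 3, 9 and 14 after pacing against sham, was sensitive to the settings. Scaling gave 3, 10, 3, 1, 4 and 6. Members with several probes alone gave 5, 10, 3, 1, 3 and 7, from fewer genes. The shares of all genes called were not computed for the scaled arrays or for this smaller list. A 2-fold threshold gave 1, 5, 0, 1, 0 and 0. The cause was not tested beyond the stricter threshold and the smaller list. Members below sham at all 5 times numbered 26 to 40 over the alternatives. Complex medians moved by over 0.1 in 24 of 396 alternative values, mostly for complex III.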
